A study of Mus musculus with 4 samples.

Results

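The expression of 10 genes of the Wnt pathway, 7 secreted antagonists (*Sfrp1*, *Sfrp2*, *Sfrp4*, *Frzb*, *Dkk2*, *Dkk3* and *Wif1*), the ligand *Wnt5a*, the feedback gene *Axin2* and the transcription factor *Lef1*, was examined in cultured mammary fibroblasts with and without *Ets2*. Every probe set that the platform annotation gives a single one of these symbols was taken, which gave 21 of 45101 probe sets and 10 of 18194 named genes. The group was chosen by name, except that *Sfrp2* and *Dkk2* were selected on their measured differences between *Ets2* genotypes, which are large, so their *Ets2* differences, and the oncogene differences that use the same arrays, are given as a description. The data were 4 Affymetrix mouse genome arrays of RNA from second-passage fibroblasts of FVB/N female mice 16 weeks of age, with 1 array for each genotype. Normal fibroblasts came from mice labelled Ets2db/loxP (*Ets2* present) and FspCre;Ets2db/loxP (*Ets2* null). The *ErbB2* fibroblasts that kept *Ets2* were from ErbB2;Ets2db/loxP mice, and their *Ets2* null counterparts came from ErbB2;Fsp-cre;Ets2db/loxP mice. All 4 genotypes carry the *Ets2db* allele, a conventional knockout aimed at the DNA-binding domain, so the *Ets2* present cells have the loxP allele as their only intact copy. Cre was driven by the fibroblast-specific protein promoter *Fsp*, and the *ErbB2* oncogene by *MMTV* in the epithelium, not in the fibroblasts. *Fsp-Cre* and loss of *Ets2* therefore cannot be told apart in these arrays. The study gives a single n per genotype for these arrays, and does not say whether the cells of an array came from a single animal or were pooled. As no genotype has a second array, replicate error is unknown, no test was run, and every difference describes these arrays.

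Wnt proteins are secreted lipid-modified ligands that bind Frizzled receptors together with LRP5 or LRP6, or with ROR and RYK receptors. In the canonical branch this stabilises beta-catenin, which joins TCF/LEF factors on target genes such as *Axin2*, while *Wnt5a* acts mostly through beta-catenin-independent branches. Secreted frizzled-related proteins and *Wif1* bind Wnt ligands outside the cell, and Dickkopf proteins such as DKK2 bind the LRP co-receptors. In the mammary gland, stromal and epithelial cells exchange Wnt signals during ductal growth, and fibroblasts are a source of several of the antagonists.

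The deleted factor, ETS2, binds DNA at sequences with a GGAA core, so the 250 bases upstream of the annotated start of *Sfrp2* and of *Dkk2*, the genes that differed most with *Ets2* genotype, are shown with each GGAA, or TTCC for the other strand, in capitals. The sequences are from RefSeq on GRCm38.p6, at chr3:83766071-83766320 and chr3:132085042-132085291, both on the plus strand, written 5′ to 3′.
Sfrp2: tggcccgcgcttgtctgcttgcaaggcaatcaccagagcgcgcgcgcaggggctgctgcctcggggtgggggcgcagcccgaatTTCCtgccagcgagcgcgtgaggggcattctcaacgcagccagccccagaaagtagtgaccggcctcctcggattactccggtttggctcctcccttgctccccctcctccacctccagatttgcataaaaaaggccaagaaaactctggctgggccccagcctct
Dkk2: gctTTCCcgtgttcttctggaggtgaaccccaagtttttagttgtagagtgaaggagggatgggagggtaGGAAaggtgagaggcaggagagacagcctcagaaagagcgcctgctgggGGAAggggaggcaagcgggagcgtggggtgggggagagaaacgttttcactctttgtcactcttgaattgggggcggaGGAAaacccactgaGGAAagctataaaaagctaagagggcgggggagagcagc
The *Sfrp2* window held 1 GGAA core, on the reverse strand between 166 and 163 bases before the start. The *Dkk2* window held 5, of which 4 were on the forward strand and the nearest lay 39 to 36 bases before the start. Such a core was found in 93.4% of 32851 windows of this length over all genes, so its presence sets neither gene apart. The longer ETS motif CCGGAAG (or CTTCCGG), found in 6.91% of all windows, and the TCF/LEF motif CTTTGA (or TCAAAG), found in 13.8%, were in neither window. Upstream windows were at hand for 6 of the 10 genes (*Sfrp2*, *Frzb*, *Dkk2*, *Wif1*, *Axin2* and *Lef1*), and no binding was measured in these data.

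Values are log2 expression made by RMA, and a difference of 1 on this scale is 2-fold. Each gene is represented by its brightest probe set over the 4 arrays unless others are named, and levels of different probe sets were not compared with each other. Values below log2 6 were not taken as shown to be above background, since 95% of the values of 77 probe sets for olfactory and vomeronasal receptors, which fibroblasts are not known to use, lay below 5.62. Array medians were 5.51 to 5.54, and any pair of arrays correlated across probe sets with Pearson's r of 0.988 to 0.993. A robust SD of the log2 differences, taken across every probe set, came to 0.212 to 0.270 in the 4 comparisons, and serves below as a yardstick in place of replicate error. Of the 10 genes, *Sfrp1*, *Sfrp2*, *Sfrp4*, *Dkk3*, *Wnt5a* and *Axin2* were at log2 6 or more in all 4 arrays, *Dkk2* in 3, and *Frzb*, *Wif1* and *Lef1* in none. Of 14 fibroblast markers, 13 were at log2 6 or more in every array, and *Fap*, the exception, was at 5.85 in normal *Ets2* null fibroblasts. The brightest *Ets2* probe set lay between 8.14 and 8.35 in the 4 arrays. Its place relative to the deleted exons is unknown here, so it does not check the genotypes.

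Markers of other cell types differed between the arrays and stand here beside all results that follow, and their part in those results was not tested. Of 10 luminal epithelial markers, 5 were more than 2-fold higher in the *Ets2* null array of normal fibroblasts. In that of *ErbB2* fibroblasts 6 were more than 2-fold lower. Of all genes, 0.621% and 1.74% passed in these directions. *Cdh1*, which is in both counts, was under log2 6 in every array (2.84 to 5.26). *Epcam* is in neither count on its brightest probe set, which may cross-hybridise and differed by -0.31 and -0.21. On another probe set the study lists *Epcam* as higher without *Ets2* in normal fibroblasts, so these counts may be too low. The log2 of the summed level of the luminal markers was 10.20, 11.46, 11.21 and 9.75 in normal *Ets2* present, normal *Ets2* null, *ErbB2* *Ets2* present and *ErbB2* *Ets2* null fibroblasts. The corresponding sums were 8.40, 9.76, 9.43 and 8.41 for 7 basal epithelial markers, of which 3 (*Krt5*, *Krt14* and *Krt17*) exceeded 2-fold upward in the *Ets2* null array of normal cells and 2 (*Krt14* and *Krt17*) more than 2-fold lower in the *ErbB2* *Ets2* null array, while *Trp63* was at 3.72 to 4.24 throughout. *Krt17*, in both basal counts, was likewise under log2 6 in every array (3.46 to 5.98). For 12 macrophage and myeloid markers the sums were 13.30, 13.01, 14.22 and 12.86. Of these markers, 7 of the 12 were more than 2-fold lower in the *ErbB2* *Ets2* null array than in its *Ets2* present counterpart. The endothelial sums, in the same order, were 9.64, 8.91, 9.30 and 8.75, those of smooth muscle 15.32, 15.43, 15.32 and 15.02, and those of adipocytes 12.39, 12.98, 12.84 and 12.83. The 14 fibroblast markers summed to 16.86, 16.58, 16.91 and 16.90, with medians of 12.98, 12.40, 13.14 and 13.00. Skeletal muscle markers summed to 10.87, 12.02, 11.27 and 9.83, with *Acta1* as the only 1 of 8 more than 2-fold higher in the normal *Ets2* null array, where their median difference was -0.26, and 5 of 8 more than 2-fold lower in the *ErbB2* *Ets2* null array. The study reports from vimentin staining that its cultures were strongly enriched for fibroblasts, and shows this for mice with another oncogene. Where a culture holds other cells, fewer cells of a type and less RNA per cell cannot be told apart.

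*Sfrp2*, a secreted frizzled-related protein made by mesenchymal cells, was lower without *Ets2* in both settings and higher with the oncogene in both *Ets2* genotypes. It read 8.38 on the log2 scale in normal cells that kept *Ets2* and 6.33 in those that lacked it, and 9.65 and 8.49 in the corresponding *ErbB2* cells. The array of *ErbB2* fibroblasts with *Ets2* was thus highest and that of normal *Ets2* null fibroblasts lowest, while the remaining pair, normal with *Ets2* and *ErbB2* *Ets2* null, differed by 0.12, less than the robust SD of that pair of arrays (0.234). The *Ets2* null array was 4.14-fold lower in normal fibroblasts and 2.23-fold lower in *ErbB2* fibroblasts. With the oncogene *Sfrp2* was 2.41-fold higher in *Ets2* present and 4.49-fold higher in *Ets2* null fibroblasts. The log2 differences with *Ets2* genotype, -2.05 and -1.15, were 0.90 apart, and this gap has no replicate error to be set against. *Sfrp2* is read by a single probe set, so no other probe set bears on these values. The summed fibroblast markers were also lowest in normal *Ets2* null fibroblasts (16.58). They were highest, by little, in *ErbB2* fibroblasts with *Ets2* (16.91, next 16.90 in *ErbB2* *Ets2* null fibroblasts). Their part in the *Sfrp2* values was not tested.

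*Dkk2*, a Dickkopf protein that blocks or weakly activates LRP co-receptors depending on context, stood out through 1 array. It read 7.21 in normal cells that kept *Ets2*, 6.33 in those that lacked it, 4.90 in *ErbB2* cells that kept *Ets2* and 7.23 in *ErbB2* cells that lacked it. *Dkk2* was thus at the same level in normal *Ets2* present and *ErbB2* *Ets2* null fibroblasts, within 0.02, and below the background limit only in *ErbB2* fibroblasts with *Ets2*. The log2 difference with *Ets2* genotype was 2.33 in *ErbB2* fibroblasts and -0.88 in normal fibroblasts, a 1.84-fold lower value. Between *ErbB2* and normal fibroblasts it was -2.31 with *Ets2* present and 0.90 without it. Because 4.90 lies under the background limit, the size of the differences that use it is not exact and no rank is given, and against the limit of log2 6 *Dkk2* was at least 2.35-fold higher in the *ErbB2* *Ets2* null array and at least 2.32-fold higher in normal fibroblasts with *Ets2*. The array with the lowest *Dkk2* is also the array with the highest summed level of myeloid markers and, by little, of fibroblast markers (16.91, next 16.90). *Dkk2* is likewise read by a single probe set.

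**Figure D1:**
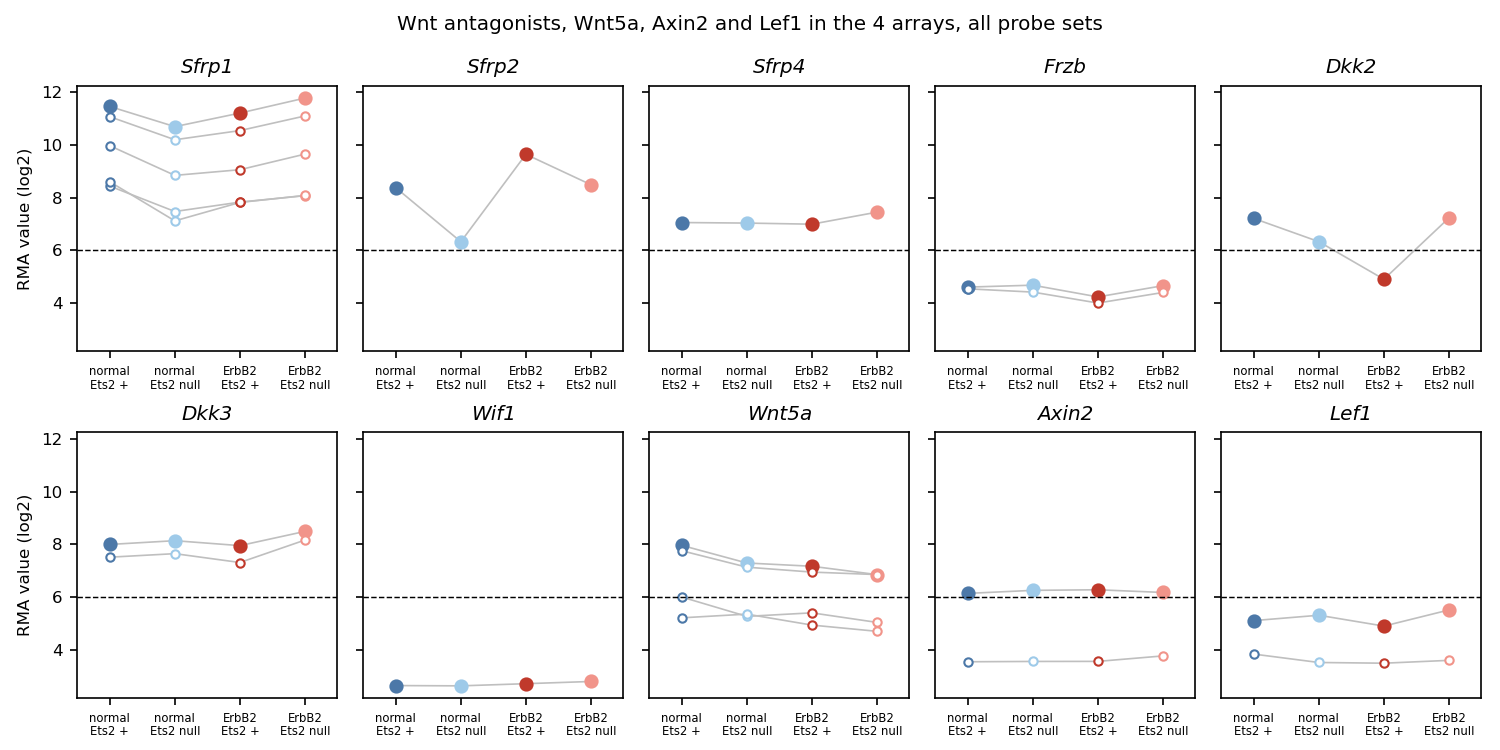
Log2 RMA value (y axis) of each probe set of the 10 genes in the 4 arrays (x axis, Ets2 + meaning Ets2 present), 1 array per genotype, with the probe set of highest mean as filled points, other probe sets as open points, grey lines joining values of the same probe set, and a dashed line at log2 6. *Sfrp2* runs from 6.33 to 9.65 and *Dkk2* from 4.90 to 7.23, while *Axin2* stays between 6.13 and 6.27 on its brighter probe set.

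*Sfrp1*, a frizzled-related antagonist often silenced in breast carcinoma, was lower without *Ets2* in normal fibroblasts and higher without it in *ErbB2* fibroblasts on all 5 of its probe sets. On the brightest it read 11.46 in normal cells that kept *Ets2*, 10.70 in those that lacked it, and 11.21 and 11.78 in the corresponding *ErbB2* cells. On all 5 probe sets the arrays with the lowest values were normal *Ets2* null and *ErbB2* *Ets2* present. These are also the arrays with the highest summed luminal, basal and skeletal muscle markers. By little, adipocyte (12.98 and 12.84, next 12.83) and smooth muscle sums (15.43 and 15.32, next 15.32) were highest there too. The part of these markers was not tested. Which of the other arrays had the highest *Sfrp1* depended on the probe set: *ErbB2* *Ets2* null on the brightest, by 0.32, and normal *Ets2* present on 3 of 5, by 0.32 to 0.52, with a difference of -0.03 on the remaining probe set. In normal fibroblasts the difference was -0.77 on the brightest probe set and -0.88, -0.96, -1.13 and -1.48 on the others, so that 2 of 5 passed 2-fold, beside 0.696% of all probe sets. In *ErbB2* fibroblasts it was smaller, from 0.24 to 0.59, and none of the 5 passed, beside 1.65%. With the oncogene the 5 differences ran from -0.91 to -0.25 where *Ets2* was present (0 of 5 past 2-fold, beside 0.687% of all probe sets) and from 0.60 to 1.09 where it was absent (1 of 5, beside 1.60%). The probe sets read the same RNA and are not replicates.

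The other frizzled-related genes varied little. *Sfrp4*, an antagonist linked to phosphate handling and bone, read 7.06 in normal cells that kept *Ets2*, 7.04 in those that lacked it, and 6.99 and 7.45 in the corresponding *ErbB2* cells. The first 3 of these lay within 0.06 of each other, and *ErbB2* *Ets2* null fibroblasts stood 0.39 above the next array, more than the robust SD of the pair (0.234). *Frzb*, a frizzled-related protein of cartilage and other mesenchyme, read 4.60, 4.68, 4.23 and 4.66 in normal *Ets2* present, normal *Ets2* null, *ErbB2* *Ets2* present and *ErbB2* *Ets2* null cells. It was lowest in *ErbB2* cells that kept *Ets2* on both of its probe sets, at levels under the background limit throughout.

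*Dkk3*, a divergent Dickkopf family member whose effect on Wnt signaling is debated, read 7.99 in normal cells that kept *Ets2*, 8.13 in those that lacked it, and 7.95 and 8.49 in the corresponding *ErbB2* cells. The difference with *Ets2* genotype was 0.54 in *ErbB2* fibroblasts on this probe set and 0.85 on the other, both more than the robust SD of 0.270 and short of 2-fold. In normal fibroblasts it was 0.14 and 0.13. *Dkk3* was thus highest in *ErbB2* *Ets2* null fibroblasts on both probe sets, and differed by only -0.04 with the oncogene where *Ets2* was present. *Wif1*, a Wnt-binding antagonist, lay between 2.62 and 2.79, far below the background limit in every array.

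*Wnt5a*, the ligand of the group, was highest in normal fibroblasts with *Ets2* and lowest in *ErbB2* *Ets2* null fibroblasts. It read 7.95 in normal cells that kept *Ets2*, 7.29 in those that lacked it, and 7.16 and 6.85 in the corresponding *ErbB2* cells, and the middle pair of the order differed by 0.12, less than the robust SD of that pair. The second bright probe set gave 7.75, 7.13, 6.94 and 6.85. On both, the difference with *Ets2* genotype in normal fibroblasts (-0.67 and -0.62) and the difference with the oncogene where *Ets2* was present (-0.79 and -0.81) exceeded the robust SD and stayed below 2-fold. The dimmer probe sets, below log2 6 throughout, differed by -0.73 and 0.14 with *Ets2* genotype in normal fibroblasts. *Wnt5a* was lower with the oncogene on all 4 probe sets, with log2 differences of -0.81 to -0.28 where *Ets2* was present.

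Of the canonical pathway genes in the group, *Axin2* hardly varied and *Lef1* lay under the background limit in every array. *Axin2*, a scaffold of the beta-catenin destruction complex whose transcription follows beta-catenin activity, read 6.13 in normal cells that kept *Ets2*, 6.25 in those that lacked it, and 6.27 and 6.17 in the corresponding *ErbB2* cells. No 2 neighbours in this order differed by more than the robust SD of their arrays, and the whole range was 0.14, but the values lie close to the background limit, so a small difference could not be seen here. *Lef1*, a beta-catenin partner on DNA, was at 5.10, 5.30, 4.89 and 5.50 in the same order on its brighter probe set. The *Lef1* difference with *Ets2* genotype was 0.61 in *ErbB2* fibroblasts, at levels below log2 6, and its other probe set differed by 0.11.

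Counted over the group, 1 of the 10 genes passed 2-fold with *Ets2* genotype in normal fibroblasts (*Sfrp2*, lower), where 0.357% of 18194 genes passed as lower and 0.621% as higher. In *ErbB2* fibroblasts 2 passed (*Dkk2* higher, *Sfrp2* lower), beside 0.341% of all genes higher and 1.74% lower. Since *Sfrp2* and *Dkk2* were chosen for these differences, nothing is read from either count, and none of the other 8 genes passed on its brightest probe set. Between *ErbB2* and normal fibroblasts, *Sfrp2* (higher) and *Dkk2* (lower) passed where *Ets2* was present, beside 0.830% of all genes higher and 0.170% lower, and *Sfrp2* and *Sfrp1* (both higher) where it was absent, beside 0.544% higher and 1.51% lower. At 1.5-fold 4, 3, 3 and 3 of the 10 passed in the 4 comparisons in the order given, beside 4.19%, 8.48%, 4.22% and 5.96% of all genes. Each of these counts includes the selected *Sfrp2* and *Dkk2*, and that for *Ets2* genotype in *ErbB2* fibroblasts also *Lef1*, under the background limit. Nothing is read from them. At 4-fold 1 gene was listed in each comparison, beside 0.104%, 0.357%, 0.121% and 0.291%. In the first and last of these comparisons that gene was *Sfrp2*. In the other 2 it was *Dkk2*, for which a 4-fold difference is not shown, as its lower value is under the background limit. The median log2 difference of the 10 genes with *Ets2* genotype was -0.02 in normal fibroblasts and 0.44 in *ErbB2* fibroblasts, beside 0.00 and 0.04 for all genes. The latter lies between *Frzb* (0.43), under the background limit, and *Sfrp4* (0.46). Both medians include *Frzb*, *Wif1* and *Lef1* under that limit and the selected genes, so no shift of the group is read from them. In *ErbB2* fibroblasts 7 of the 10 were above 0, beside 55.8% of all genes. They were *Dkk3*, *Sfrp1*, *Sfrp4*, the selected *Dkk2*, and *Frzb*, *Wif1* and *Lef1*, which are under the background limit, and *Sfrp2*, *Wnt5a* and *Axin2* were below.

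**Figure D2:**
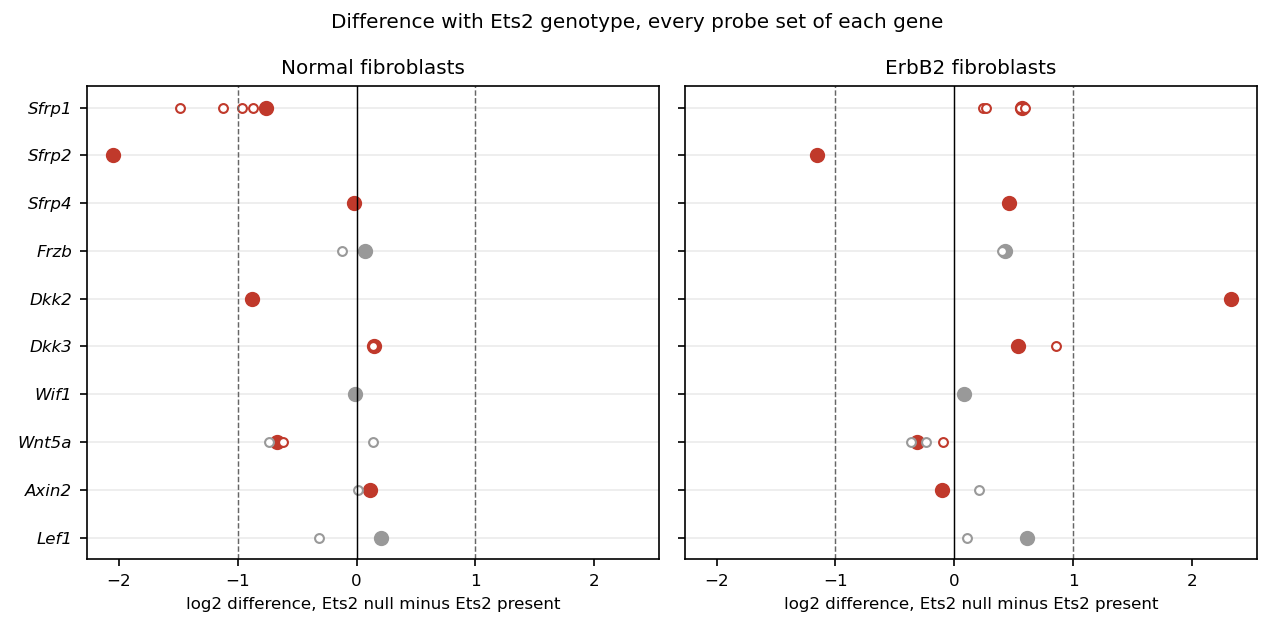
Log2 difference, *Ets2* null minus *Ets2* present (x axis), of every probe set of the 10 genes in normal (left) and *ErbB2* fibroblasts (right), with the probe set of highest mean filled, probe sets below log2 6 in all 4 arrays in grey, and dashed lines at 2-fold. All 5 *Sfrp1* probe sets lie below 0 on the left and above 0 on the right, and *Sfrp2* lies left of -1 in both panels.

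Other genes of the pathway were taken from a list of 96, of which 94 were measured and 63 reached log2 6 in some array. With *Ets2* genotype, none of the 94 passed 2-fold in normal fibroblasts, beside 0.621% of all genes higher and 0.357% lower. In *ErbB2* fibroblasts 4 passed (1.06% higher and 3.19% lower, beside 0.341% and 1.74% of all genes). The median log2 differences were -0.01 in normal and 0.00 in *ErbB2* fibroblasts. Of the 4, *Lgr5* and *Wnt11* passed against a value below log2 6, and with the mean of each gene's probe sets 2 of 94 passed. *Wnt4*, a ligand of the mammary epithelium that acts downstream of progesterone, read 8.52 in normal cells that kept *Ets2*, 9.16 in those that lacked it, and 9.76 and 7.97 in the corresponding *ErbB2* cells. Its second probe set gave 6.66, 7.34, 7.64 and 6.62, so both were highest in *ErbB2* fibroblasts with *Ets2* and lowest in *ErbB2* *Ets2* null fibroblasts. *Wnt4* was high in the arrays where the epithelial markers and the summed skeletal muscle markers were high.

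*Wnt11*, a ligand of the beta-catenin-independent branch, read 6.69 in *ErbB2* cells that kept *Ets2* and 5.65 in those that lacked it, and 6.32 and 6.24 in the corresponding normal cells. Among receptors, *Lgr5*, which binds R-spondins, was at 6.84 in *ErbB2* *Ets2* null fibroblasts and between 5.26 and 5.80, under the background limit, in the other 3 arrays, on the only one of its probe sets that reached log2 6. None of the 10 measured Frizzled genes passed 2-fold in any comparison. As 0.170% to 1.74% of all genes passed in each direction of a comparison, nothing is read from this. *Fzd1* and *Fzd2*, both well above background, lay within 9.04 to 9.48 and 10.32 to 10.73. Of the receptors for *Wnt5a*, *Ror1* lay between 6.77 and 7.42, *Ror2* between 7.08 and 7.81 and *Ryk* between 11.13 and 11.26. *Wls*, which carries Wnt proteins to the cell surface, lay between 10.27 and 10.58.

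Among targets and feedback genes, *Nkd2*, an inhibitor that binds Dishevelled, read 7.77 in normal cells that kept *Ets2*, 8.30 in those that lacked it, and 8.23 and 7.21 in the corresponding *ErbB2* cells. On 3 of its 4 probe sets the difference in *ErbB2* fibroblasts was -1.05 to -1.01, and on the fourth, a probe set that may cross-hybridise, -0.13. *Ccnd1*, cyclin D1, a target of several growth pathways, was at 8.64, 8.97, 8.32 and 7.66 in that order, and passed 2-fold between *ErbB2* and normal fibroblasts where *Ets2* was absent. *Myc* lay between 9.52 and 9.72, and *Ctnnb1*, beta-catenin itself, between 12.19 and 12.43. Of the 21 genes of intracellular Wnt signaling and transcription, none passed 2-fold in any of the 4 comparisons. As 0.170% to 1.74% of all genes passed in each direction of a comparison, nothing is read from this count. The list as a whole had 1 of 94 genes past 2-fold between *ErbB2* and normal fibroblasts where *Ets2* was present (*Wnt4*, higher, beside 0.830% of all genes higher and 0.170% lower). Where it was absent 4 of 94 passed (*Lgr5* higher, *Wnt4*, *Nkd2* and *Ccnd1* lower, beside 0.544% and 1.51% of all genes), and with the mean of probe sets 1 did.

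**Figure D3:**
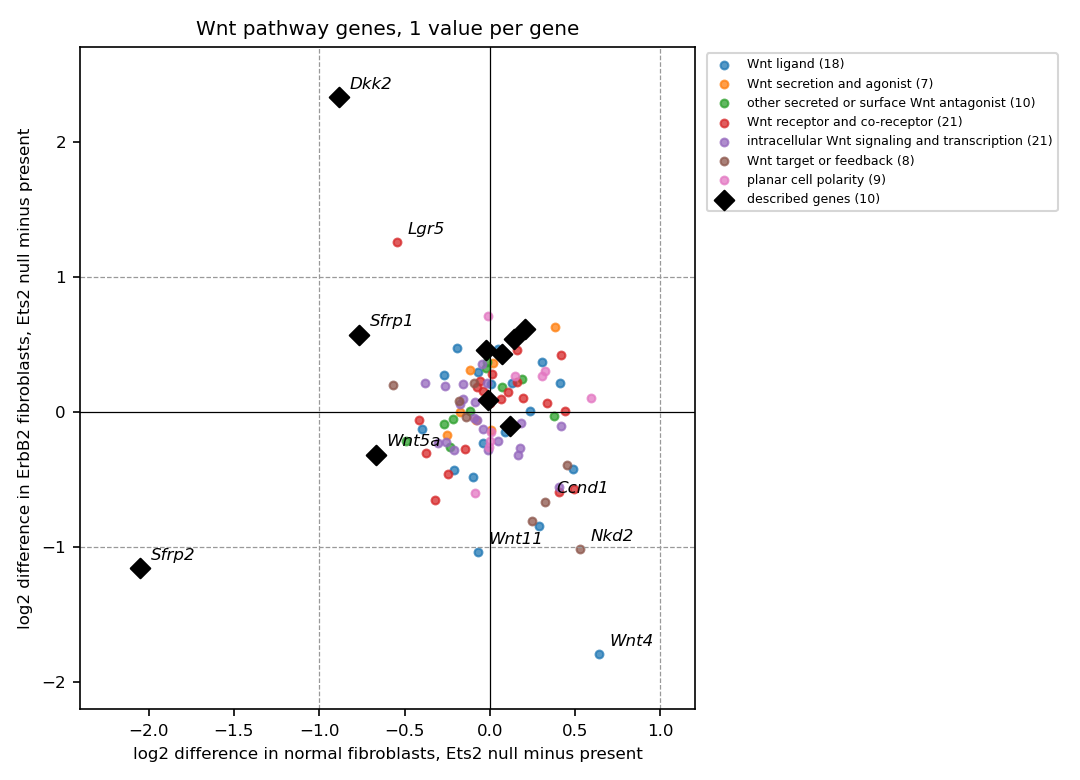
Log2 difference, *Ets2* null minus *Ets2* present, in normal (x axis) and *ErbB2* fibroblasts (y axis) for the 10 genes described (black diamonds) and the 94 other measured genes of the pathway (circles, coloured by role), 1 value per gene, with dashed lines at 2-fold. *Sfrp2* lies alone at the lower left (-2.05 and -1.15), *Dkk2* at the top (-0.88 and 2.33), and most other genes lie within 2-fold on both axes.

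The genes whose pattern over the 4 arrays was most like those of *Sfrp2* and *Dkk2* were sought by the Euclidean distance between log2 profiles, each less its own mean, over 10929 other genes with an array at log2 6 or more. With 4 arrays such likeness is a weak description, and the directions these genes share with *Sfrp2* or *Dkk2* follow from the way they were picked. Nearest to *Sfrp2* were *Abi3bp*, an extracellular matrix protein, at a distance of 0.36, *C1qa*, a complement chain made by macrophages, at 0.51, and *Lum*, a collagen-binding proteoglycan of fibroblasts, at 0.71. *Abi3bp* read 5.44 in normal cells that kept *Ets2*, 3.64 in those that lacked it, and 6.92 and 6.05 in the corresponding *ErbB2* cells. Its values in normal cells are under the background limit. *Lum* was at 7.77, 6.71, 9.47 and 8.45 in that order. *C1qa* is on the list of myeloid markers and was at 8.38, 6.61, 9.49 and 8.99. With *Ets2* genotype 1 of the 12 myeloid markers, *C1qa*, was more than 2-fold lower in normal fibroblasts, beside 0.357% of all genes. In *ErbB2* fibroblasts 7 of 12 were, beside 1.74%, and *C1qa* (-0.49) was not among them. With the oncogene and no *Ets2*, *C1qa* was higher by 2.39, against a median of -0.22 for the list. The part of the myeloid markers in the pattern was not tested.

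Nearest to *Dkk2* were *Aldh1a2*, an enzyme that makes retinoic acid, at a distance of 0.37, *Ecrg4*, a secreted peptide precursor, at 0.83, and *Olr1*, a scavenger receptor for oxidized lipoprotein, at 0.83. *Aldh1a2* was at 6.45, 5.72, 4.63 and 6.79 and *Ecrg4* at 6.68, 5.84, 5.38 and 7.24 in the order given for *Abi3bp*. Both were under the background limit in normal *Ets2* null and *ErbB2* *Ets2* present fibroblasts. *Olr1*, at 5.40, 5.58, 3.24 and 6.03, reached log2 6 in 1 array, so its profile rests mostly on values under the background limit.

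**Figure D4:**
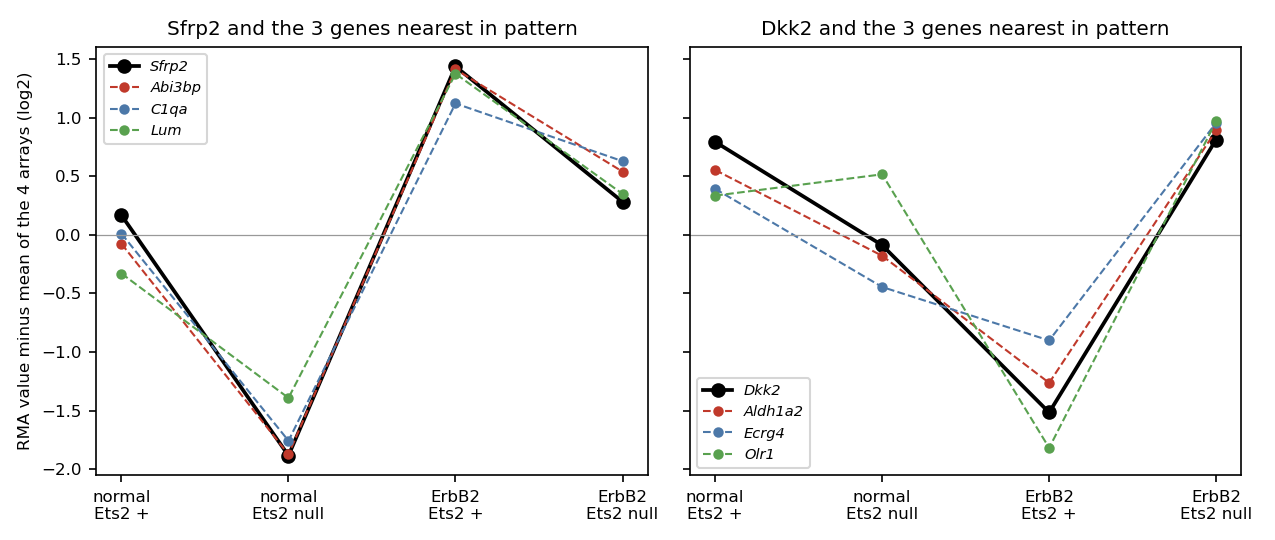
Log2 RMA value less the mean over the 4 arrays (y axis) in each array (x axis, Ets2 + meaning Ets2 present) for *Sfrp2* (left) and *Dkk2* (right), black solid lines, and for the 3 genes nearest to each in pattern, dashed coloured lines. *Sfrp2*, *Abi3bp*, *C1qa* and *Lum* are lowest in normal *Ets2* null and highest in *ErbB2* *Ets2* present fibroblasts, and *Dkk2* and its 3 neighbours are lowest in the latter.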

How the data were processed

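RNA from second-passage mammary fibroblasts, 1 array for each of 4 genotypes, was profiled on Affymetrix mouse genome arrays. The authors deposited log2 values made with RMA (background correction, quantile normalization and a summary per probe set), as the notes of the submitters state. The methods name WEDGE++ or RMA for finding changed genes, without saying which served these arrays. The sources used here give neither a version nor the probe definitions. Since RMA equalises the distributions of the arrays, a shift of most genes together would be lost, and depth does not apply: the number of arrays limits the precision. Gene names came from the platform annotation, in which 34958 had a single symbol, 932 had several and 9211 were unnamed here, and the latter 2 kinds name no gene.

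Differences were computed in Python 3.11.15 (pandas 2.3.3, numpy 2.4.6) as *Ets2* null minus *Ets2* present and as *ErbB2* minus normal. The oncogene comparisons share arrays with the *Ets2* comparisons, so no relation between them was read. Over 2-fold, in place of a test, was the size counted, on the probe set of highest mean per gene. Genes were named by rule: the 10 genes, listed pathway genes past 2-fold in any comparison with the higher array at log2 6 or more, and the 3 genes nearest in pattern to each of *Sfrp2* and *Dkk2*. Other listed genes given as ranges, and single markers, fall outside that rule and were picked with their values known. The 10 genes and all lists were chosen with earlier results of these data known. Fibroblast, luminal, basal, myeloid, endothelial, smooth muscle, skeletal muscle and adipocyte marker lists were measured. Alternatives were sizes of 1.5-fold and 4-fold, the mean of a gene's probe sets, omission of probe sets ending in _x_at or _s_at, arrays centred on their medians, renewed quantile normalization, intensity-dependent loess (statsmodels 0.14.6, span 0.4) and a limit at log2 6. Only the difference and count steps were run on simulated data, with changes large enough that their recovery was bound to follow. Figures were drawn with matplotlib 3.10.9.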

Additional observations from a re-analysis of the deposited data

Results flagged for a closer look

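Some genes had *Ets2* differences of opposite sign in normal and *ErbB2* fibroblasts, each over 2 times the robust SD of all probe sets, and the gap between the settings was not tested, since each rests on 1 array per genotype. Taken as *Ets2* null less *Ets2* present on the log2 scale, *Dkk2* differed by -0.88 in normal and by 2.33 in *ErbB2* fibroblasts, where the lower value is under the background limit of log2 6. *Sfrp1* differed by -0.77 and 0.57, with the same signs on all 5 probe sets. In *ErbB2* fibroblasts, however, its dimmest probe sets differed by 0.245 and 0.266, less than the robust SD of 0.270. *Lgr5* was listed at -0.54 and 1.26, but 3 of its 4 values are under that limit, and its other probe set gave -0.18 and -0.19. *Wnt4* and *Nkd2* ran the other way, at 0.64 and -1.79 and at 0.53 and -1.01. The epithelial markers moved in the direction of *Wnt4* and *Nkd2*, with a median of 1.06 and -1.29 over 10 luminal genes, and their part in these values was not tested.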

How the results depend on the processing

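*Sfrp2* and *Dkk2* have 1 probe set each, so only 3 alternatives could move their differences: median centring, quantile normalization and loess. With *Ets2* genotype, in normal and *ErbB2* fibroblasts, *Sfrp2* was at -2.06 to -2.04 and -1.19 to -1.06 under these. *Dkk2* was at -0.89 to -0.88 and 2.28 to 2.33. The arrays were already quantile normalized, with medians of 5.51 to 5.54, so these alternatives could shift such differences little. Nothing is read from the kept signs. Of 200 recomputed differences of the 10 genes, 197 moved by less than the robust SD of all probe sets, used as no replicate SD exists, and 56 of the 200 were identical to the reported value, as under an alternative that leaves a gene's probe set as it is. The exceptions came with the mean of a gene's probe sets: *Sfrp1* at -1.04 in place of -0.77 (*Ets2*, normal) and -0.62 in place of -0.25 (oncogene, *Ets2* present), and *Lef1* at -0.06 in place of 0.20. With that mean *Sfrp1* passed 2-fold in normal fibroblasts, giving 2 of 10 genes there, and fell short with the oncogene where *Ets2* was absent, giving 1. At 1.5-fold 4 of the 10 passed in normal fibroblasts (*Sfrp1*, *Sfrp2*, *Dkk2* and *Wnt5a*, all lower without *Ets2*), and at 4-fold 1 in *ErbB2* fibroblasts and 1 in each oncogene comparison, by listed values that for *Dkk2* start or end under the background limit. Of the 94 other pathway genes, 2 and 12 passed 1.5-fold with *Ets2* genotype in normal and *ErbB2* fibroblasts, beside 4.19% and 8.48% of all genes. With the oncogene 3 and 8 passed where *Ets2* was present and absent, beside 4.22% and 5.96%. At 4-fold 0 passed in any comparison, beside 0.104% to 0.357% of all genes. With the mean of probe sets 2 passed 2-fold with *Ets2* genotype in *ErbB2* fibroblasts and 1 with the oncogene where *Ets2* was absent. No paired analysis was possible because each genotype has 1 array.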
